A study of Homo sapiens with 24 samples.

Results

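The 10 genes described here encode the heat shock chaperones of the cytosol and their main partners: HSPA1A, HSPA1B, HSPA8, HSPH1, HSP90AA1, HSP90AB1, DNAJB1, DNAJA1, DNAJB6 and BAG3. They were found by their annotated symbols among the 47323 probes of an Illumina expression beadchip, which held 14 probes for the 10 genes. Of these, 13 probes for 9 genes passed the filter on dim probes, out of 17557 probes and 10882 genes that passed in all. RNA came from SKNMC, TC32, TC71 and RDES, established lines of Ewing sarcoma, a tumour of bone and soft tissue. In each line, 3 samples were treated with 5 nM pladienolide B (PlaB) for 24 h. PlaB is a macrolide that blocks pre-mRNA splicing through SF3b, the spliceosome component that helps select branch points. The other 3 had received 0.1% DMSO vehicle for 24 h, although the treatment protocol in the labels calls the controls untreated. All 24 samples were grown in the same medium. Whether a group's 3 samples were grown as independent cultures is not stated in the labels. The p-values therefore reflect sample-to-sample spread that may be technical only.

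HSP70 proteins bind exposed hydrophobic stretches of unfolded proteins in a cycle driven by ATP. J-domain proteins deliver the clients and stimulate the ATPase, while nucleotide exchange factors such as HSPH1 and BAG3 release them. HSP90 proteins act later, on kinases, steroid receptors and other near-native clients. When unfolded protein accumulates, the transcription factor HSF1 binds heat shock elements, which are inverted repeats of the unit GAA, and raises transcription of many of these genes. HSPA1A and HSPA1B carry no introns, so their transcripts need no splicing, whereas the other 8 genes are spliced.

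Heat shock elements are shown because they are the sites that HSF1 binds. The search covered the RefSeq promoter windows of GRCh38.p14, which run from 250 bases before to 50 bases after each annotated start, and found 15 windows for the 10 genes. The three-unit motif is GAANNTTC followed, after any pair of bases, by GAA, and it was searched on both strands. It was present for 5 of the 10 genes, in 5 of their 15 windows. The same motif was found in 0.490% of all 35116 windows. The shorter motifs GAANNTTC and TTCNNGAA, which read the same on both strands and lie inside the longer one, were present for 8 of the 10 genes, in 9 windows, against 13.5% of all windows. Only HSPH1 and BAG3 had neither in these windows. Not every match is shown, since HSPA8, HSP90AA1, HSP90AB1, DNAJB1 and DNAJA1 had others in their windows. Capitals mark the match, and every sequence reads 5′ to 3′ along the strand of its gene.
HSPA1A, chr6:31815427-31815454, plus strand: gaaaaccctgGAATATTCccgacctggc
HSPA1B, chr6:31827623-31827650, plus strand: gaaacccctgGAATATTCccgacctggc
HSPA8, chr11:123062171-123062199, minus strand: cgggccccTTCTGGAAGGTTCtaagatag
HSP90AA1, chr14:102087112-102087140, minus strand: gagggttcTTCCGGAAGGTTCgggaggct
HSP90AB1, chr6:44247770-44247798, plus strand: ggagcaggTTCTGGAAGATTCatgggctc
DNAJB1, chr19:14518427-14518454, minus strand: gcgggctctgGAAGCTTCcgccggacgg
DNAJA1, chr9:33025268-33025296, plus strand: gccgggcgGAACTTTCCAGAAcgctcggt
DNAJB6, chr7:157336865-157336893, plus strand: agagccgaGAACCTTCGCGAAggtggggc
The matches of HSPA1A and HSPA1B began at -106 and -105 relative to the start, in windows that were 92.0% identical. A match describes these letters only, and binding was not measured.

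Levels are log2 intensities after background correction and quantile normalization, and a response is the PlaB mean minus the vehicle mean on that scale. The mean response is the average of the 4 within-line responses, and a gene was called when its limma p, adjusted over all tested probes, was under 0.05. Arrays detected 13821 to 16997 probes with PlaB, against 16363 to 18736 with vehicle, and the part of this difference in the results was not tested. Of 8 Ewing sarcoma markers, 7 were detected on all 24 arrays, and LIPI on 2 PlaB and 7 vehicle arrays. No epithelial, blood-cell or endothelial marker was detected on all 24 arrays, although KRT18 was detected on 23 and CD14 on 22. Arrays of a group correlated at 0.987 to 0.994 across probes. Their number limits the precision, and lower RNA per cell cannot be told apart from fewer cells of a kind.

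Most of the chaperone genes were higher after PlaB, and BAG3, DNAJB6 and DNAJA1 had the largest mean responses. In the mean of the lines, 8 of the 9 tested genes rose and 0 fell, whereas 32.2% of all tested genes rose and 37.9% fell. HSP90AA1 was the gene that was not called. The median response of the 9 genes was 0.60, against -0.03 over all tested genes. All 9 genes rose in SKNMC, where 26.3% of all genes rose and 31.3% fell, and 7 rose in TC32, where 21.6% of all genes rose and 23.8% fell. In RDES 7 rose and 1 fell, against 21.4% and 22.5% of all genes. In TC71 3 rose and 1 fell, against 22.9% and 25.2%, so the TC71 count was near the background. DNAJA1, DNAJB6 and BAG3 rose in all 4 lines, as did 10.0% of all genes. When arrays were centred on their median, only 5, 4 and 5 genes were called in SKNMC, TC32 and RDES, and HSPA8 and HSPH1 lost their mean calls. The share of all tested probes that rose in the mean of the lines also fell under that centring, from 30.9% to 16.6%.

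The arrays can also be set against each other directly, by asking whether all 3 PlaB arrays of a line lay above all 3 vehicle arrays. They did for 8 of the 9 genes in SKNMC (26.9% of all genes), 7 in TC32 (24.1%), 5 in TC71 (27.2%) and 6 in RDES (25.5%). All 3 lay below for HSPH1 in TC71 (29.4% of all genes) and for HSP90AA1 in RDES (26.4%). No brightest probe did so in SKNMC or TC32, where 33.8% and 26.9% of all genes did.

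**Figure D1:**
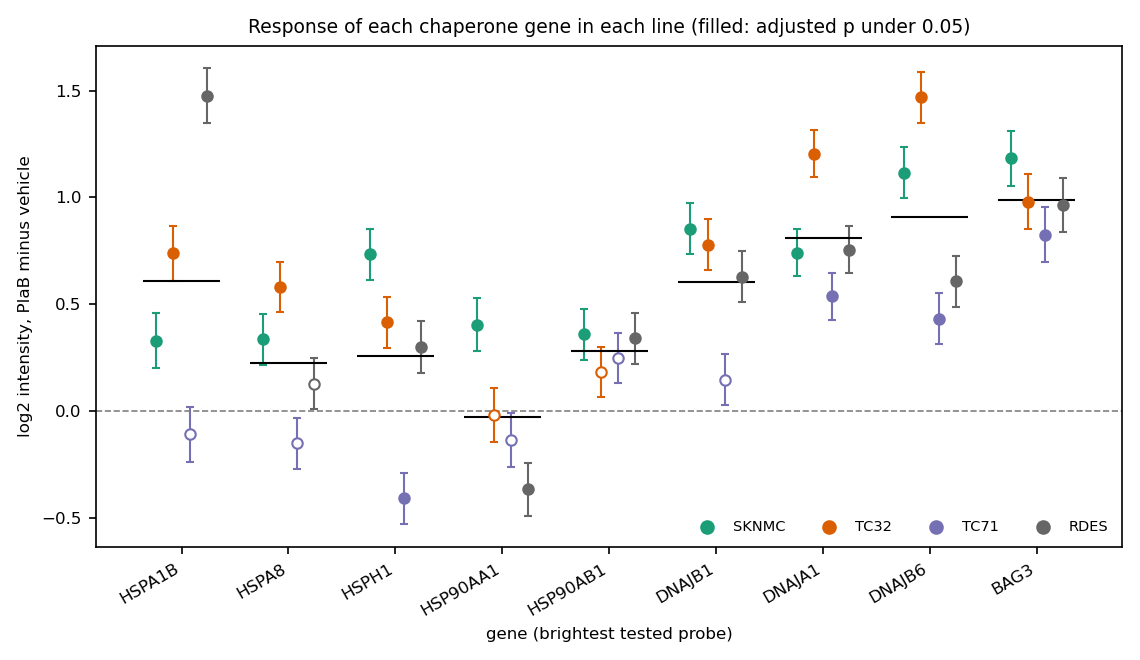
Response (log2 intensity, PlaB minus vehicle) of the 9 tested chaperone genes in each line, read from the brightest tested probe, with the standard error; filled points have an adjusted p under 0.05 and the black bar is the mean of the 4 lines. BAG3 responses lie between 0.83 and 1.18 in every line, whereas those of HSPA1B run from -0.11 in TC71 to 1.48 in RDES.

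HSPA1B and HSPA1A encode the stress-inducible HSP70. In RDES the HSPA1B level was 7.95, 8.38 and 8.22 on the PlaB arrays, against 6.79, 6.71 and 6.64 on the vehicle arrays. In TC32 it was 8.23, 8.34 and 8.30 with PlaB, against 7.64, 7.55 and 7.46 with vehicle. The PlaB arrays lay above the vehicle arrays in both lines without overlap. In SKNMC the levels were 9.05, 8.48 and 8.83 with PlaB and 8.65, 8.48 and 8.25 with vehicle, and the groups overlapped. In TC71 they were 8.48, 8.35 and 8.60 with PlaB and 8.54, 8.69 and 8.52 with vehicle, and the groups overlapped there too. The vehicle level of RDES was the lowest of the 4 lines for this probe, and PlaB brought it to 8.19 ± 0.22 (SD, n = 3), against PlaB means of 8.29 to 8.79 in the other lines.

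The HSPA1B response was 1.48 ± 0.13 (SE) in RDES, a 2.78-fold rise (limma, adjusted p = 2.0e-10). It was 0.74 ± 0.13 in TC32 (adjusted p = 2.5e-05), 0.33 ± 0.13 in SKNMC (adjusted p = 0.032) and -0.11 ± 0.13 in TC71 (adjusted p = 0.54). The SKNMC call was lost without vehicle replicate 2 (0.34, adjusted p = 0.058), vehicle replicate 3 (0.23, adjusted p = 0.19), PlaB replicate 1 (0.20, adjusted p = 0.24) or PlaB replicate 3 (0.31, adjusted p = 0.082). Under median centring the SKNMC and TC32 responses were 0.15 and 0.38, with adjusted p of 0.50 and 0.073. The HSPA1A probe was above background on 1 of 12 PlaB arrays, RDES replicate 3, and on 0 of 12 vehicle arrays, with raw intensities of 65.0 to 81.0. It was not tested and no fold is given. The 2 genes are near-identical copies, and whether the HSPA1B probe also reads HSPA1A was not tested.

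**Figure D2:**
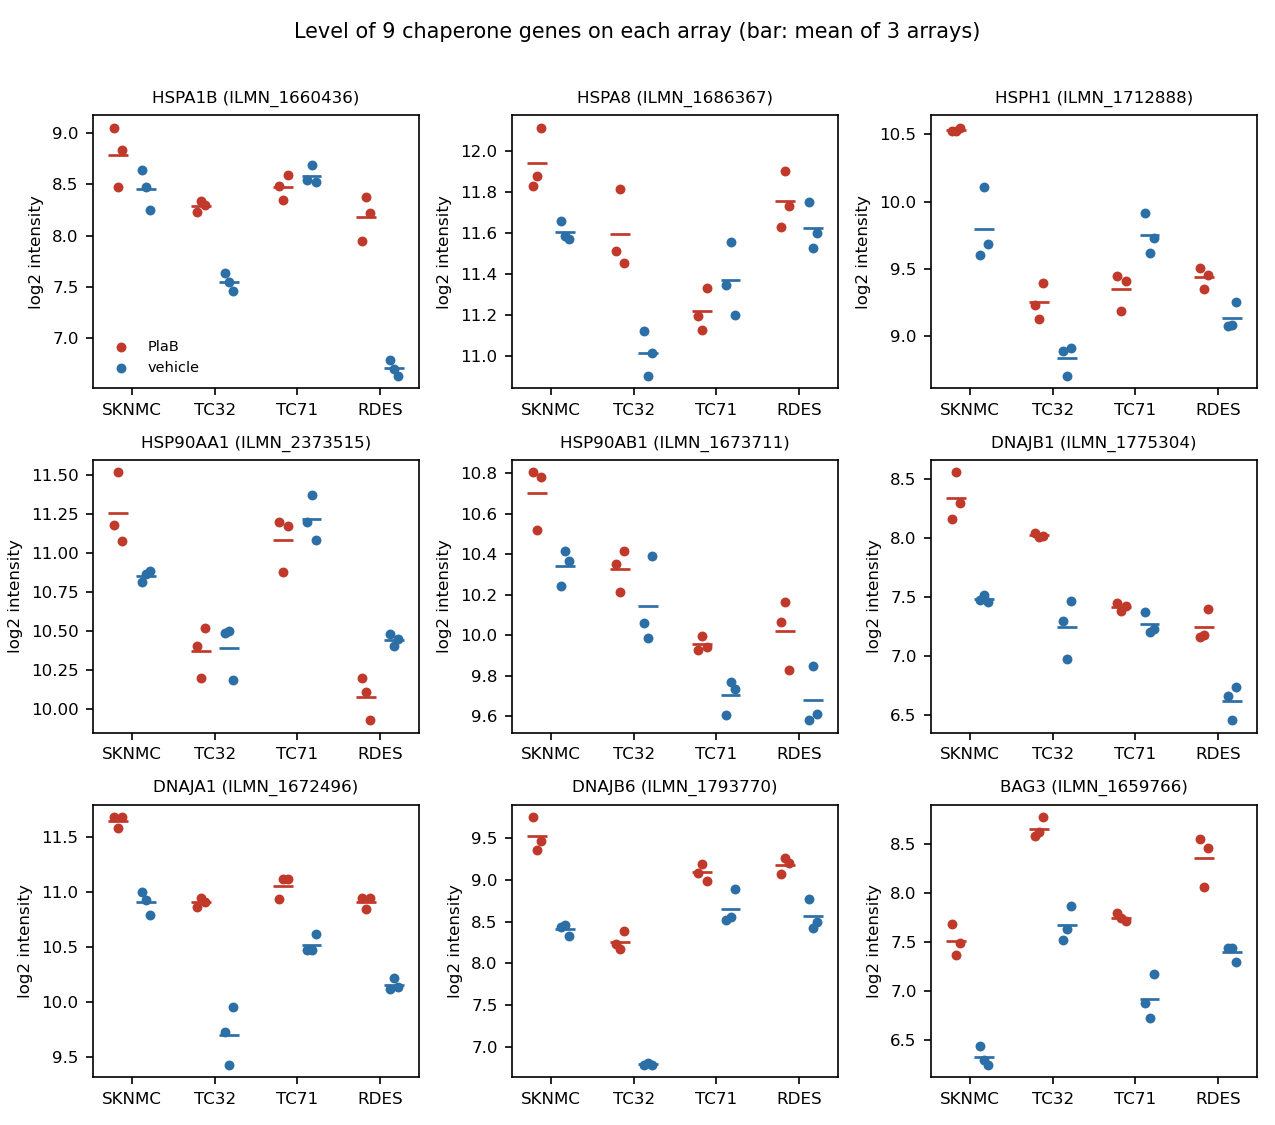
Level (log2 intensity) of the chaperone genes on each of the 24 arrays, by line, with PlaB to the left of vehicle and the bar marking the mean of 3 arrays. HSPA1B separates without overlap in TC32 and RDES, and DNAJB1, DNAJA1, DNAJB6 and BAG3 separate in all 4 lines.

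HSPA8, the constitutive HSP70 that also uncoats clathrin vesicles, and HSPH1, an HSP110 exchange factor of HSP70, had smaller mean responses than HSPA1B. They were 0.22 ± 0.06 and 0.26 ± 0.06, against 0.61 ± 0.06. In SKNMC and TC71 HSPH1 moved further than HSPA1B, and in TC32 and RDES it moved less. The HSPA8 level in TC32 was 11.51, 11.82 and 11.45 with PlaB, against 11.12, 10.91 and 11.02 with vehicle, without overlap. The response was 0.58 ± 0.12 in TC32 (limma, adjusted p = 0.00018) and 0.34 ± 0.12 in SKNMC (adjusted p = 0.017). In TC71 and RDES it was -0.15 ± 0.12 and 0.13 ± 0.12 and was not called. The SKNMC call was lost without PlaB replicate 3 (0.25, adjusted p = 0.11). Median centring ended both calls, with 0.27 in TC32 (adjusted p = 0.15) and 0.31 in SKNMC (adjusted p = 0.087). A probe for another HSPA8 transcript gave responses of 0.54, 0.28, -0.20 and 0.12 in TC32, SKNMC, TC71 and RDES. Over the 4 lines the probes differed by 0.04 (exact permutation within lines, two-sided p = 0.52, adjusted over 5 probe pairs p = 0.65). The 5 pairs were chosen after the data were seen.

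HSPH1 was the 1 gene of the 9 that rose in 3 lines and fell in the other. Its level in SKNMC was 10.52, 10.53 and 10.55 with PlaB, against 9.60, 10.11 and 9.69 with vehicle. In TC71 it was 9.45, 9.19 and 9.41 with PlaB, against 9.91, 9.62 and 9.73 with vehicle. The PlaB arrays lay above the vehicle arrays in SKNMC and below them in TC71, with no overlap in either. The responses were 0.73 ± 0.12 in SKNMC (limma, adjusted p = 5.9e-06), 0.42 ± 0.12 in TC32 (adjusted p = 0.0060), -0.41 ± 0.12 in TC71 (adjusted p = 0.0064) and 0.30 ± 0.12 in RDES (adjusted p = 0.047). The TC71 fall was -0.33 both without vehicle replicate 1 (adjusted p = 0.051) and without PlaB replicate 2 (adjusted p = 0.052). The RDES call was lost on leaving out vehicle replicate 1 or 2 or PlaB replicate 1 or 3, with responses of 0.26 to 0.29 and adjusted p of 0.098 to 0.14. It stood under 3 of 6 scalings, and under median centring the TC32 response was 0.046 and was not called (adjusted p = 0.85).

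All 3 J-domain genes rose in the mean of the lines. DNAJB1 is the main partner of inducible HSP70, DNAJA1 a partner of HSPA8 that carries a farnesyl anchor, and DNAJB6 a suppressor of protein aggregation. The DNAJB1 level in SKNMC was 8.16, 8.56 and 8.30 with PlaB, against 7.48, 7.52 and 7.46 with vehicle. In TC32 it was 8.04, 8.01 and 8.02 with PlaB, against 7.30, 6.97 and 7.47 with vehicle, and in RDES 7.16, 7.18 and 7.40 against 6.66, 6.46 and 6.74. In TC71 the 3 PlaB arrays (7.45, 7.38 and 7.43) lay just above the vehicle arrays (7.38, 7.21 and 7.23), with the lowest PlaB array close to the highest vehicle array. The responses were 0.85 ± 0.12, 0.78 ± 0.12 and 0.63 ± 0.12 in SKNMC, TC32 and RDES (limma, adjusted p = 3.8e-07, 3.2e-06 and 7.1e-05), and 0.15 ± 0.12 in TC71 (adjusted p = 0.34). Under median centring the TC71 value was -0.052.

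The DNAJA1 level in TC32 was 10.86, 10.94 and 10.91 with PlaB, against 9.73, 9.42 and 9.95 with vehicle. In TC71, where it moved least, it was 10.93, 11.12 and 11.12 with PlaB, against 10.47, 10.47 and 10.62 with vehicle. PlaB arrays lay above vehicle arrays in all 4 lines without overlap. The responses were 1.21 ± 0.11 in TC32 (limma, adjusted p = 4.2e-10), 0.76 ± 0.11 in RDES (adjusted p = 1.8e-06), 0.74 ± 0.11 in SKNMC (adjusted p = 1.2e-06) and 0.54 ± 0.11 in TC71 (adjusted p = 0.00018). DNAJA1 kept its call in every line under all 6 scalings compared.

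DNAJB6 was read by a probe for the transcript of its longer, nuclear isoform and by a probe for the shorter isoform. With the first, the level in TC32 was 8.23, 8.17 and 8.38 with PlaB, against 6.78, 6.81 and 6.78 with vehicle, and in TC71 9.09, 9.19 and 8.99 against 8.52, 8.55 and 8.89. The groups did not overlap in any line. Its responses were 1.47 ± 0.12 in TC32, 1.12 ± 0.12 in SKNMC, 0.61 ± 0.12 in RDES and 0.43 ± 0.12 in TC71, all called (limma, largest adjusted p = 0.0035, in TC71). Under median centring the TC71 response was 0.32 and was not called (adjusted p = 0.11). The probe for the shorter isoform gave 0.77, 0.78, 0.76 and 0.71 in the same order of lines. The first probe thus responded by 0.70 more in TC32 and by 0.28 less in TC71, and over the 4 lines the probes differed by 0.15 (exact permutation within lines, two-sided p = 0.28, adjusted over 5 probe pairs p = 0.46). Whether this gap differs between lines was not tested.

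BAG3, which couples HSP70 to selective autophagy and small heat shock proteins, had the largest mean response of the 9 genes, 0.99 ± 0.06 or 1.98-fold (limma, adjusted p = 2.1e-14). Its level in SKNMC was 7.69, 7.37 and 7.49 with PlaB, against 6.45, 6.30 and 6.25 with vehicle. In TC71 it was 7.80, 7.75 and 7.72 with PlaB, against 6.88, 6.73 and 7.17 with vehicle. PlaB arrays lay above vehicle arrays in all 4 lines. The responses were 1.18 ± 0.13, 0.98 ± 0.13, 0.83 ± 0.13 and 0.96 ± 0.13 in SKNMC, TC32, TC71 and RDES. A difference between lines was not detected (limma F-test, adjusted p = 0.38). Under the 6 scalings the mean response ranged from 0.73 to 0.99 and was called each time.

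HSP90AB1, the constitutive HSP90, had a small rise, and HSP90AA1, the inducible one, gave a reading that depended on the probe. The HSP90AB1 level in SKNMC was 10.80, 10.52 and 10.78 with PlaB, against 10.24, 10.42 and 10.37 with vehicle. The mean response was 0.28 ± 0.06 (limma, adjusted p = 0.00011), and 0.36, 0.18, 0.25 and 0.34 in SKNMC, TC32, TC71 and RDES, each with an SE of 0.12. Only SKNMC (adjusted p = 0.011) and RDES (adjusted p = 0.021) were called. The arrays overlapped in RDES, whereas in TC71, which was not called (limma, adjusted p = 0.089), the PlaB arrays lay above the vehicle arrays. The SKNMC call was lost without vehicle replicate 1 or PlaB replicate 1 (0.31 each, adjusted p = 0.055 and 0.053). The RDES call was lost without any of 4 arrays, vehicle replicates 1 and 3 and PlaB replicates 1 and 2, with responses of 0.27 to 0.32 and adjusted p of 0.065 to 0.11. Median centring ended both calls, with 0.30 in SKNMC (adjusted p = 0.051) and 0.27 in RDES (adjusted p = 0.10).

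The brightest HSP90AA1 probe was not called in the mean of the lines, at -0.03 ± 0.06 with a 95% interval of -0.16 to 0.10 (limma, adjusted p = 0.71). In SKNMC its level was 11.18, 11.52 and 11.08 with PlaB, against 10.81, 10.86 and 10.89 with vehicle, and in RDES 10.20, 10.11 and 9.93 against 10.48, 10.40 and 10.45. On this probe the groups did not overlap in either line, and they moved in opposite directions. The response was 0.41 ± 0.12 in SKNMC (limma, adjusted p = 0.0070) and -0.37 ± 0.12 in RDES (adjusted p = 0.019), with TC32 and TC71 at -0.02 and -0.13. The SKNMC call was lost without PlaB replicate 2 (0.28, adjusted p = 0.081). The RDES call was lost without vehicle replicate 1 (-0.35, adjusted p = 0.058) or PlaB replicate 3 (-0.29, adjusted p = 0.11). Median centring ended both calls, with 0.34 in SKNMC (adjusted p = 0.089) and -0.40 in RDES (adjusted p = 0.063). A probe of similar level, ILMN_1691097, gave 0.14 in SKNMC and -0.11 in RDES, neither called (limma, adjusted p = 0.32 and 0.47).

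A dim HSP90AA1 probe, ILMN_1687546, annotated to the transcript of the longer isoform, was detected on 5 of 12 PlaB arrays and on 12 of 12 vehicle arrays. Its level in SKNMC was 4.29, 4.16 and 4.47 with PlaB, against 5.53, 5.16 and 5.06 with vehicle. In TC71 it was 5.22, 4.69 and 5.12 with PlaB, against 5.88, 5.81 and 5.96 with vehicle. PlaB arrays lay below vehicle arrays in every line without overlap. Of all genes, 33.8%, 26.9%, 29.4% and 26.4% did so in SKNMC, TC32, TC71 and RDES. In RDES the highest PlaB array (4.43) was close to the lowest vehicle array (4.47), and the fall was not called (limma, adjusted p = 0.068). TC71 was the line in which all 6 arrays detected the dim probe, and the response there was -0.87 ± 0.13 (limma, adjusted p = 2.2e-06). In SKNMC and RDES 1 of 3 PlaB arrays detected it, so those PlaB levels are set mostly by the background and no size is given. In TC32 no PlaB array was above background, so the level there was at least 1.11-fold lower. The limma call in TC32 (adjusted p = 0.033) was made on those background values, and the bound itself was not tested. The probe ILMN_1691097, annotated to the same longer transcript, gave a mean response of -0.03 ± 0.06. In TC71 the brightest probe and ILMN_1691097 gave -0.13 ± 0.12 and -0.20 ± 0.11, neither of them called. Pairs of the dim probe with the others were among the 5 probe pairs tested by permutation. No result is read from them, because the dim probe was near background.

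**Figure D3:**
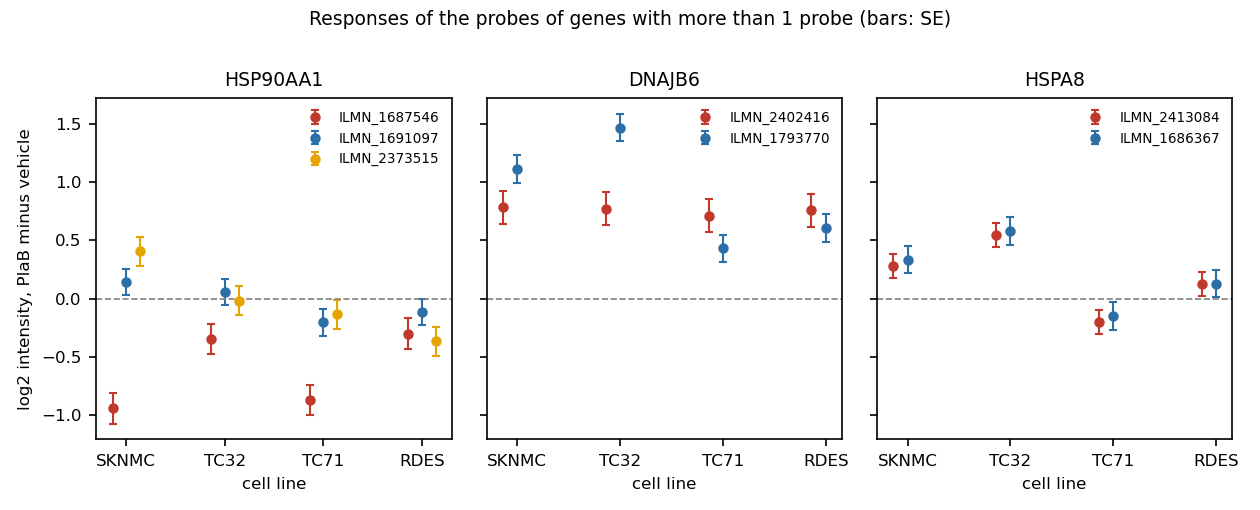
Response (log2 intensity, PlaB minus vehicle) of each probe of HSPA8, HSP90AA1 and DNAJB6 in each line, with the standard error. One HSP90AA1 probe, which was near background on most PlaB arrays, lies below 0 in all 4 lines while the other HSP90AA1 probes lie on both sides of 0.

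The size of the response differed between lines for 7 of the 9 genes by the limma F-test, where 47.1% of all tested genes did so, and HSP90AB1 and BAG3 were the exceptions. The count was 5 under median centring and 6 with the mean of all tested probes of a gene. Other probes of these genes did not all pass: the adjusted p was 0.99 for the DNAJB6 probe of the shorter isoform and 0.23 for the HSP90AA1 probe ILMN_1691097. TC71 was the low line in most of these. The TC32 response exceeded the TC71 response for HSPA1B by 0.85 ± 0.18, for HSPA8 by 0.73 ± 0.17, for HSPH1 by 0.82 ± 0.17, for DNAJB1 by 0.63 ± 0.17, for DNAJA1 by 0.67 ± 0.16 and for DNAJB6 by 1.04 ± 0.17. These 6 of 9 genes were called (limma, largest adjusted p = 0.0091), against 18.5% of all genes for that pair. Between SKNMC and TC32 only DNAJA1 was called, 1 of 9 against 30.3% of all genes, and its response was 0.46 lower in SKNMC. Between SKNMC and RDES, HSPA1B, HSP90AA1 and DNAJB6 were called, 3 of 9 against 26.7%. The SKNMC response exceeded that of TC71 for 5 of the 9, HSPA8, HSPH1, HSP90AA1, DNAJB1 and DNAJB6, against 26.3% of all genes. For TC71 and RDES the called genes were HSPA1B and HSPH1, 2 of 9 against 12.2%. Between TC32 and RDES, HSPA1B and DNAJB6 were called, 2 of 9 against 13.2%. RDES was the high line for HSPA1B alone. Its response exceeded those of SKNMC by 1.15, TC32 by 0.74 and TC71 by 1.58, each with an SE of 0.18 (limma, adjusted p = 2.9e-05, 0.0077 and 5.7e-07).

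The comparison of intronless with intron-bearing genes rested on HSPA1B alone, since HSPA1A was not above the filter. It is a description with no test. HSPA1B minus the mean of the 8 intron-bearing genes was -0.39, 0.04, -0.30 and 1.06 for SKNMC, TC32, TC71 and RDES, with 0.10 for the mean of the lines. HSPA1B ranked last of the 9 genes in SKNMC, 5 in TC32, 6 in TC71 and 1 in RDES. The SKNMC rank rested on 0.33 ± 0.13 for HSPA1B against 0.34 ± 0.12 for HSPA8. With the mean of all tested probes of a gene, HSPA8 (0.31) and HSP90AA1 (-0.13) were lower than HSPA1B (0.33) in that line. The intron-bearing genes averaged 0.72, 0.70, 0.19 and 0.42 in SKNMC, TC32, TC71 and RDES. In the same order, 8, 6, 3 and 6 of the 8 rose, against 26.3%, 21.6%, 22.9% and 21.4% of all genes. Those that fell numbered 0, 0, 1 and 1, against 31.3%, 23.8%, 25.2% and 22.5% of all genes. The 8 responses spanned 0.34 to 1.18 in SKNMC, -0.02 to 1.47 in TC32, -0.41 to 0.83 in TC71 and -0.37 to 0.96 in RDES. HSPA1B minus the mean of the 8 was also taken on each array. Its SD within groups averaged 0.23, 0.12, 0.10 and 0.15 in SKNMC, TC32, TC71 and RDES, and 0.15 over all groups. This spread is not the error of a response, and it leaves out the spread among the 8 genes. The difference between responses was larger than this spread in SKNMC, TC71 and RDES. HSPA1B was below the mean of the others in SKNMC and TC71 and above it in RDES. In TC71 it lay within the range of the others. The difference was smaller than the spread in TC32 and in the mean of the lines. Among 24 tested single-exon genes outside the chaperones, taken from a list of 33, 10 rose and 11 fell in the mean of the lines, beside 32.2% and 37.9% of all genes, and the median response was -0.06, against -0.03 over all genes. KTI12, a factor of Elongator-dependent tRNA modification, rose by 0.93 ± 0.05, and POU3F2, a neural transcription factor, fell by 1.40 ± 0.07.

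**Figure D4:**
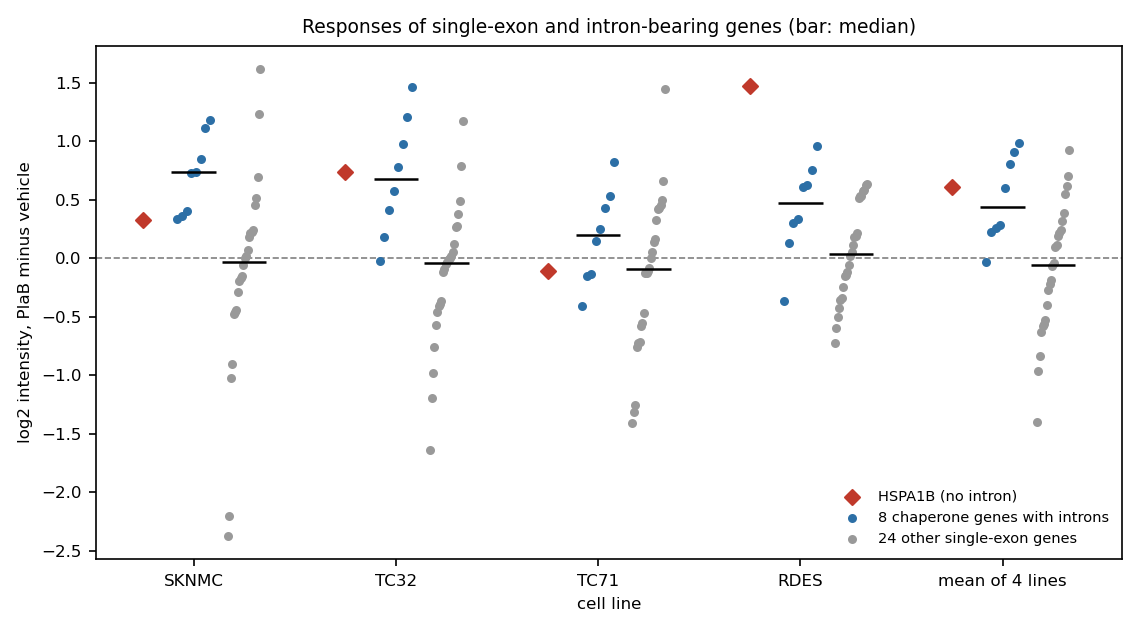
Response (log2 intensity, PlaB minus vehicle) of HSPA1B and of the 8 tested intron-bearing chaperone genes, in each line and in the mean of the lines. Grey points are the 24 tested single-exon genes outside the chaperones, and bars mark medians. HSPA1B is the highest of the 9 genes in RDES and the lowest in SKNMC, where HSPA8 lies close to it.

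Counts for the wider chaperone network, in the mean of the lines, stand beside 32.2% of all genes that rose and 37.9% that fell. Of 15 other cytosolic HSP70, HSP110 and J-domain genes, 7 rose and 5 fell, with a median of 0.11. DNAJB2, a J-domain protein rich in neurons, rose by 0.90 ± 0.06 on its brightest probe, while its other probe gave 0.05 ± 0.07 and was not called. HSPA4L, an HSP110 relative of HSPH1, had the largest fall of the list and was detected on 6 of 12 PlaB and 10 of 12 vehicle arrays. In TC71, where all 6 arrays detected it, its response was -0.88 (limma, adjusted p = 1.3e-06). Of 7 HSP70 co-chaperones 3 rose and 4 fell, with a median of -0.59. STUB1, the ubiquitin ligase that marks HSP70 clients for degradation, fell by 1.55 ± 0.06 (limma, adjusted p = 4.2e-19), and its other probe gave -1.58 ± 0.09. BAG4, which shares the BAG domain of BAG3, rose by 0.58 ± 0.08, and by 0.20 ± 0.06 on its other probe.

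Among 9 HSP90 co-chaperones 1 rose and 4 fell, with a median of -0.04, again beside 32.2% and 37.9% of all genes. FKBP5, which restrains steroid receptors, fell by 0.87 ± 0.05, and TTC4 rose by 0.42 ± 0.05. Of 6 small heat shock proteins 2 rose and 1 fell. HSPB3, a small heat shock protein of muscle, was detected on every array of TC32 and RDES, where its responses were 0.75 and 0.39 and both were called, and on 1 array of the other lines. HSPB1, the best known of them, fell by 0.28 ± 0.06. Of the 8 subunits of the TRiC chaperonin, which folds actin and tubulin, 3 rose and 2 fell. CCT8 rose by 0.30 ± 0.06, and CCT7 fell by 0.90 ± 0.05 on its brightest probe, and its other probes gave -0.74 and -1.55. Among 9 mitochondrial chaperones 3 rose and 4 fell, and GRPEL2, an exchange factor of mitochondrial HSP70, rose by 0.69 ± 0.07. DNAJC19, a J-domain protein of the inner membrane, fell most. Its response was -0.98 in TC71 and -0.59 in RDES, where every array detected it, while 0 of 3 PlaB arrays did so in SKNMC and 2 of 3 in TC32.

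HSF1, the factor that drives the heat shock response, was near background, with 6 of 12 PlaB and 4 of 12 vehicle arrays detecting its probe. It passed the filter only through the TC71 PlaB group, so no response is read from it. HSBP1, which binds and restrains HSF1, rose by 0.57 ± 0.07. These are transcript levels, and HSF1 is regulated mainly as a protein.

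Within lines, the levels of DNAJA1, DNAJB6 and BAG3 moved closely together over the 24 arrays, with Pearson correlations of 0.90 to 0.94 after each line's mean was subtracted. These correlations include the difference between PlaB and vehicle arrays. HSP90AA1 correlated with the other 8 genes at -0.34 to 0.33. Outside the chaperones, the genes most like BAG3 were RBM22 (0.976), BANP (0.970) and SCAF11 (0.969). Those most like DNAJB1 were NOLC1 (0.963), DDX55 (0.953) and LRP3 (0.931). Those most like HSPA1B were NSDHL (0.928), HSD17B2 (0.912) and PFKFB3 (0.911). RBM22 rose by 1.27 ± 0.06 in the mean of the lines and HSD17B2 by 0.76 ± 0.07, with 1.64 in RDES. In TC71 HSD17B2 was detected on 1 of 3 PlaB and 0 of 3 vehicle arrays.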

How the data were processed

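Per the file headers, the deposited table of unnormalized data gives a probe intensity and a detection p-value on each of 24 arrays. GenomeStudio, R 3.0.2 and lumi appear in the submitters' processing notes. The deposited series matrix holds log2 values. They correlated with the log2 intensities at 0.998 or more in TC32, at 0.758 to 0.763 in TC71 and at 0.352 to 0.362 in SKNMC and RDES, so they served only as an alternative for TC32. Chip positions and the genome build were not given in the sources used here.

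Intensities were background-corrected from the detection p-values, given an offset of 16 and quantile-normalized (neqc, limma 3.58.1 in R 4.3.3). Probes with a detection p under 0.05 on all 3 arrays of at least 1 group were tested. One limma model of the 8 groups was fitted to all 24 arrays (16 residual and 13.4 prior degrees of freedom), with two-sided p-values adjusted by Benjamini-Hochberg over 17557 probes. A gene was read from its brightest tested probe. Symbols came from the platform annotation, in which 30112 probes had 1 symbol, 8 several and 17203 none. Named genes were all members, the list gene with the largest called rise and fall of each list, HSF1, and the 3 genes most correlated with HSPA1B, BAG3 and DNAJB1. Single-exon genes were listed from general knowledge. The members and lists were chosen with earlier results of these data known. The procedure was tested on simulated data. No arrays held identical values. Alternatives covered background, offset, scaling, filter, probe choice, left-out arrays, single-line fits and a replicate block.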

Additional observations from a re-analysis of the deposited data

Results flagged for a closer look

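The response to PlaB differed between the 4 lines for 7 of the 9 tested genes, by the limma F-test adjusted over all tested probes. The adjusted p was 6.4e-07 for HSPA1B, 3.8e-05 for HSPH1 and 3.8e-05 for DNAJB6. It was 0.0043 for DNAJB1, 0.0051 for HSPA8, 0.0059 for HSP90AA1 and 0.0064 for DNAJA1. Of all tested genes, 47.1% passed the same test. These values are of the brightest probes. The DNAJB6 probe of the shorter isoform gave an adjusted p of 0.99 and another HSP90AA1 probe 0.23. The count was 5 under median centring and 6 with the mean of all tested probes of a gene. HSPA1B had the widest range of responses, 1.58, between RDES and TC71, and its vehicle level was lowest in RDES. HSPH1 ranged over 1.14, between SKNMC and TC71.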

How the results depend on the processing

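Counts of called genes were 9, 7, 4 and 8 in SKNMC, TC32, TC71 and RDES, and 8 in the mean of the lines. Centring arrays on their median moved the median response of all probes by -0.12 and gave 5, 4 and 5 in SKNMC, TC32 and RDES, and 6 in the mean of the lines. It also lowered the share of all tested probes that rose in the mean of the lines from 30.9% to 16.6%. In RDES the split of 7 up and 1 down became 5 and 0 under that scaling and 6 and 0 when arrays were centred on the probes that every array detected. Leaving out 1 array gave 7 to 8 in SKNMC, 7 to 7 in TC32, 3 to 4 in TC71, 5 to 7 in RDES and 8 to 8 in the mean, and 7 to 7 genes with responses that differed between lines. That last count was 5 under median centring and 6 with the mean of all tested probes. The difference of HSPA1B from the intron-bearing genes then ran from -0.51 to -0.24 in SKNMC, -0.05 to 0.09 in TC32, -0.34 to -0.23 in TC71, 0.95 to 1.18 in RDES and 0.07 to 0.14 in the mean. In RDES it was 0.75 without background correction and 0.85 with an offset of 50. With no filter on dim probes, which brings in HSPA1A, it was 0.34 in RDES, -0.32 in TC32 and -0.20 in the mean.

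Signs turned for HSP90AA1 in SKNMC with the mean of all its probes (-0.13, limma, adjusted p = 0.27). They also turned for this gene in the mean of the lines when arrays were centred on the probes that every array detected (0.068). With the mean of all its probes, HSP90AA1 was called in the mean of the lines (-0.22, adjusted p = 0.00021). Under median centring signs turned for HSP90AB1 in TC32 (-0.15) and DNAJB1 in TC71 (-0.052). HSP90AA1 in TC32 turned to 0.030, 0.037 and 0.070 without vehicle replicate 1, vehicle replicate 2 and PlaB replicate 2. Causes were not tested. Deviations of same-numbered arrays from their group means correlated at -0.04 to 0.05 in 12 pairs. In 6 of the 12 the PlaB array correlated best with the vehicle array of its own number. Whether same-numbered samples were handled together was not tested. With a replicate block the counts were 9, 7, 4, 8 and 8, and 7 genes had responses that differed between lines. Levels near background limit HSPA1A, the dim HSP90AA1 probe, HSF1, HSPA4L, HSPB3, DNAJC19 and HSD17B2.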
